A study of Mus musculus with 24 samples.

Results

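The comparison is between both active diets of the study: mice whose high-fat diet, made with corn oil (cHF), carried an n-3 PUFA concentrate (cHF+F), and mice whose cHF diet carried rosiglitazone (cHF+ROSI). Its members are the 16 arrays of these groups, 8 of each, out of 24 in the series, chosen by their group label. The arrays of cHF alone took no part in the fit. All mice were male C57BL/6N, 3 months old at the start, and were fed the diets for 8 weeks. The cHF diet held about 35% lipid by weight. In cHF+F, 15% of that lipid was replaced by a concentrate of 46% DHA and 14% EPA (the long-chain n-3 fatty acids of fish oil), and cHF+ROSI held 10 mg of rosiglitazone per kg of diet. The mice were fasted for 10 h and then re-fed chow overnight before gastrocnemius, a mixed and mainly fast calf muscle, was taken. Each array held RNA of 1 mouse, labelled with Cy5, against a common pool labelled with Cy3, and the value used throughout is the log2 ratio of Cy5 to Cy3. The 8 slides each carried 1 array of each group at a fixed place, so that diet and place on the slide cannot be told apart.

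Rosiglitazone is an insulin-sensitising drug that activates PPARγ, a nuclear receptor most abundant in fat cells. EPA and DHA also bind receptors of the PPAR family, which switch on genes of fatty acid uptake, storage in droplets and oxidation, and they lower the activity of SREBP-1, the factor that drives genes of fatty acid synthesis. Skeletal muscle takes up most of the glucose disposed of after a meal, stores it as glycogen, and in the re-fed state turns from fatty acids to glucose as fuel.

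Over the 16 arrays, 41.5% to 61.3% of the spots were well above background in Cy5, except on the cHF+ROSI array of slide 4 with 91.1%. On the cHF+ROSI array of slide 3 the 210 brightest genes had a median log2 ratio of -0.75, and on that of slide 2 of -0.26, against -0.051 to 0.12 on the other 14 arrays. The medians of lists of abundant genes are therefore given with and without slide 3. Some dimmer genes named below read near 0 on the cHF+ROSI arrays of slides 2 and 3. Fbxl22 read 0.0076 and 0.0021 there, Trib3 -0.011 and -0.010, and Plk5 0.015 and -0.0015. For such genes the difference on these slides is close to the cHF+F value alone, and their slide counts and medians include it. The cause was not tested. All 14 genes that mark skeletal muscle passed the filter on dim probes. Of these, 13 were higher in cHF+F, 7 at an unadjusted p under 0.05 (50%, against 5.17% of all genes), and their median difference was 0.19, or 0.11 without slide 3 and 0.0070 by Cy5 alone.

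No probe passed an adjusted p of 0.05 among 15934 tested with limma within slides (0%; the smallest adjusted p was 0.242). At an unadjusted p under 0.05 there were 1572 probes (9.87%), 923 higher (5.79%) and 649 lower (4.07%) in cHF+F. That split was 1259 higher and 196 lower with the scanner software's processed signals, and 45 and 62 with median centring in place of loess. The methods' t-test, which leaves out the slide, gave 939 probes at that level and 0 after Benjamini-Hochberg adjustment. The Cy3 channel, which held the same pool on every array, gave 930 probes (5.84%) at an unadjusted p under 0.05 between the same arrays, and 0 after adjustment. Counted by gene, with the brightest probe of each of 10521 symbols, 544 were higher (5.17%) and 515 lower (4.89%) in cHF+F at an unadjusted p under 0.05. The shares given for the gene lists below are to be set against these shares of all genes. Without regard to p, 51.2% of genes were higher and 48.8% lower in cHF+F, 1.1% were higher on all 8 slides and 1.06% lower on all 8. Since nothing passed the adjusted threshold, the differences below are measured values. Each stands next to its standard error (SE) and the number of slides on which it ran the same way. The SE is limma's moderated one, whose variance over the slides is drawn towards that of all probes. For genes that vary more than most it is smaller than the plain SE of their slide differences.

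**Figure D1:**
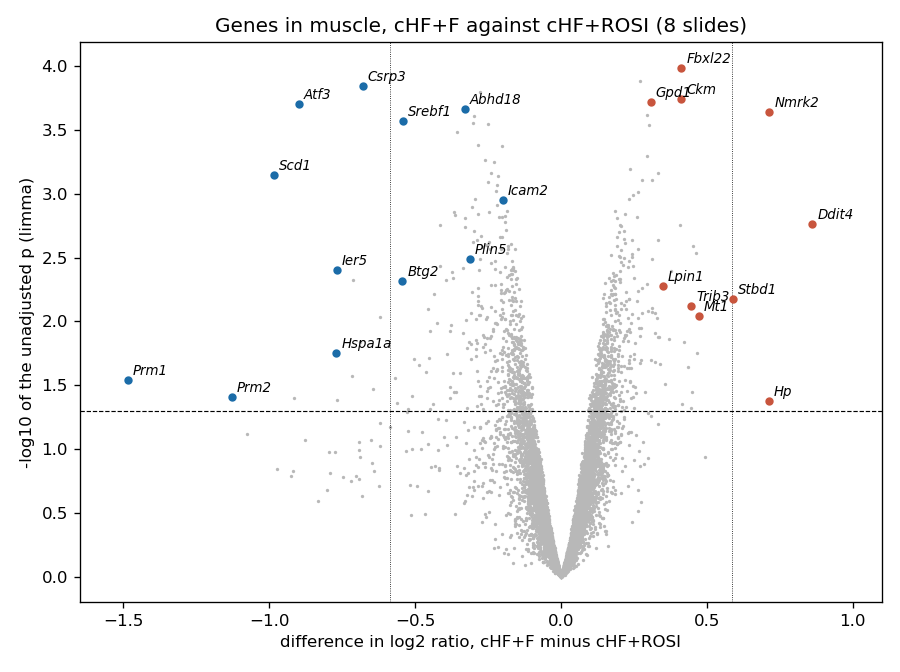
Each grey point is 1 of the 10521 genes; the x axis is the difference in log2 ratio between cHF+F and cHF+ROSI and the y axis the -log10 of its unadjusted p from limma. Blue points (lower in cHF+F) and red points (higher) are named genes, the dashed line marks an unadjusted p of 0.05 and the dotted lines 1.5-fold. Atf3, Csrp3, Scd1 and Srebf1 stand out on the left and Nmrk2 and Ddit4 on the right.

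Large differences were few. With an unadjusted p under 0.05 and at least 1.5-fold, 18 genes were left (0.171%), 4 higher and 14 lower in cHF+F. By probes there were 23 such differences, 4 higher and 19 lower, but 22 higher and 20 lower with the scanner software's processed signals and 9 and 17 by Cy5 alone. The count came to 39 without slide 3, 11 without slide 4 and 64 without slide 7. The 4 higher genes were Ddit4, Nmrk2, Hp and Stbd1. Among the 14 lower genes were the lipogenic enzyme Scd1, the stress-induced factors Atf3 and Ier5, the heat shock protein Hspa1a, the stretch-responsive muscle proteins Csrp3 and Ankrd1, and the protamines Prm1 and Prm2. Ankrd1 is outside the rule for named genes and was picked after its values were seen; its difference was -0.71.

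The gene with the smallest p among those higher in cHF+F was Fbxl22, an F-box protein of the muscle Z-disc. Its log2 ratio was 0.10 to 0.92 over the 8 cHF+F mice (median 0.32) and -0.23 to 0.14 over the 8 cHF+ROSI mice (median 0.0049). It was higher in cHF+F on all 8 slides, by 0.41 ± 0.073 (SE), that is 1.33-fold, although the highest cHF+ROSI value lay above the lowest cHF+F value. The pool's Cy3 signal for Fbxl22 was dim, at 2.19 times background where the filter cut at 2. Its Cy5 signal alone gave 0.41.

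Nmrk2, a muscle kinase that makes NAD from nicotinamide riboside, showed a wider gap. Its values were -0.57 to 0.71 in cHF+F (median 0.42) and -1.39 to -0.10 in cHF+ROSI (median -0.42). The difference of 0.71 ± 0.14 held on 7 slides, and slide 8 ran the other way by -0.47. Without slide 8 the difference was 0.88 and its adjusted p from limma was 9.5e-05, the only probe to pass in that fit. With all 8 slides its adjusted p from limma was 0.242. That fit left out the slide that ran against the difference, so its p is not a test of it.

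Creatine kinase Ckm (0.41 ± 0.077), the glycerol phosphate dehydrogenase Gpd1 (0.31 ± 0.058) and the creatine-making enzyme Gamt (0.30 ± 0.06) were each higher on all 8 slides. So were Fam131a, Ppnr, Lman2, Rhobtb2, Sypl2 and the histone gene H2bc21, by 0.24 to 0.31, and Mpp3 was higher on 7 slides by 0.33. For Ckm, Gpd1 and Sypl2 the Cy5 signal alone gave smaller differences of 0.19, 0.079 and 0.078. The second Gpd1 probe gave 0.086. Second probes gave 0.18 for Sypl2, higher on 5 slides, and 0.20 for Rhobtb2, higher on 6. The pool's Cy3 signal for Ppnr was dim, at 2.24 times background.

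On the lower side the smallest p belonged to Csrp3, the muscle LIM protein that sits at the Z-disc and is induced by stretch. Its log2 ratio was -1.12 to -0.27 in cHF+F (median -0.68) and -0.86 to 0.76 in cHF+ROSI (median -0.11). The difference of -0.68 ± 0.12 held on 7 slides. Ankrd2, another stretch-induced protein, was lower by 0.42 ± 0.14 but on 5 slides only.

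Abhd18, whose product has no settled role, was one of 4 genes (0.038% of those tested) with no overlap between the groups. Every cHF+F value (-0.42 to -0.074) lay below every cHF+ROSI value (-0.043 to 0.34). The difference in log2 ratio was -0.33, and -0.14 by Cy5 alone. The pool's Cy3 signal for Abhd18, 2.66 times background, was higher on the cHF+F arrays by 0.12. The kinase Dapk2, Smagp, Shisa2, Tnfrsf19 and the membrane-shaping GTPase Atl2 were also lower in cHF+F on all 8 slides, by 0.20 to 0.36 in size, with overlapping groups. Pdlim2 (-0.30) and Plk5 (-0.29) were lower on 7.

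**Figure D2:**
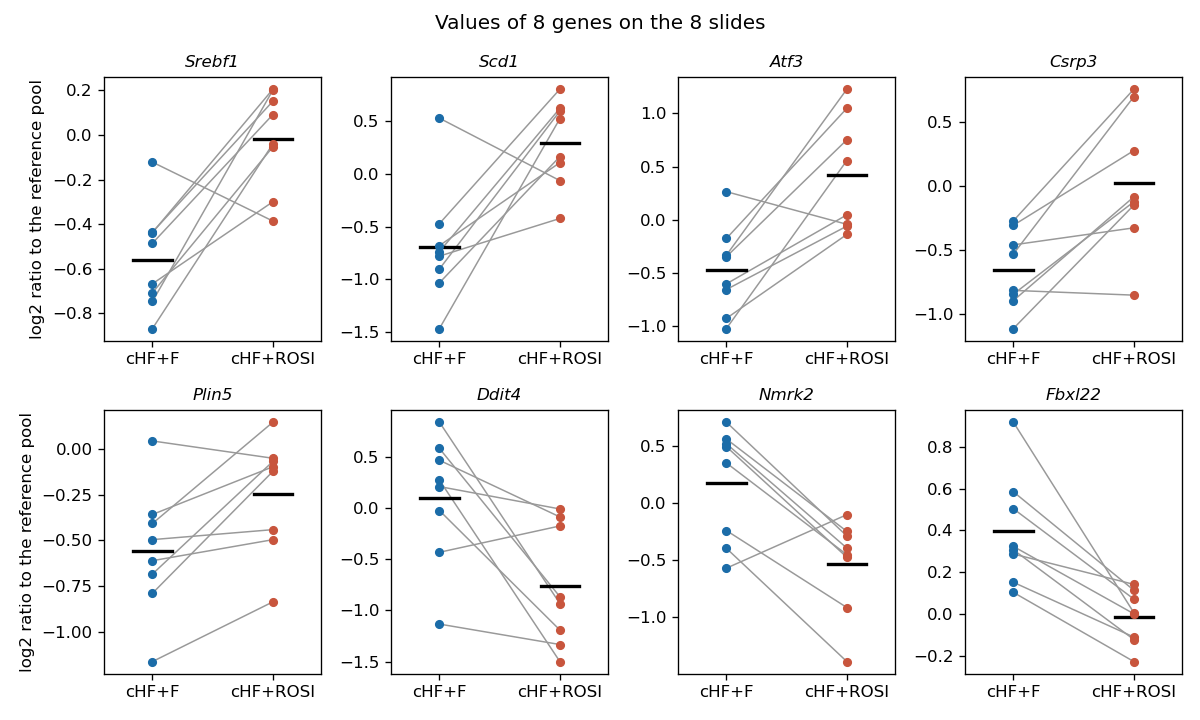
Log2 ratios of 8 genes in the cHF+F mice (blue) and the cHF+ROSI mice (red), with lines that join arrays of the same slide and black bars at the group means. Srebf1, Scd1, Atf3, Csrp3 and Plin5 were lower in cHF+F and Ddit4, Nmrk2 and Fbxl22 higher, each with 0 or 1 slides against.

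The gene for SREBP-1 and one of its best known targets were both lower in the mice given n-3 PUFA. Srebf1, which encodes SREBP-1, measured at chr11:60015907-60015966 of mouse build mm8, had log2 ratios of -0.87 to -0.12 in cHF+F (median -0.58) and of -0.39 to 0.21 in cHF+ROSI (median 0.026). The gap of -0.54 ± 0.11, or 1.46-fold, held on 7 slides, with slide 7 opposite at 0.26. Without slide 7 it was -0.66 with an adjusted p from limma of 0.0176, the only probe called in that fit. The adjusted p from limma was 0.242 with all 8 slides. Slide 7 was the slide against the difference, so the p without it is not a test.

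Scd1, stearoyl-CoA desaturase, which makes monounsaturated from saturated fatty acids (chr19:44448208-44448267, mm8), showed the largest difference of the lipid genes. Its values ran from -1.47 to 0.53 in cHF+F (median -0.76) and from -0.42 to 0.80 in cHF+ROSI (median 0.34). The difference was -0.98 ± 0.22, a level 1.98-fold lower, on 7 slides. Slide 5 stood against it with 0.59.

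The list of lipogenic genes as a whole did not share this. Of 21 tested (24 listed), 11 were lower and 10 higher in cHF+F, with a median of -0.033 against 0.0026 over all genes, and 3 were lower at an unadjusted p under 0.05 (14.3%, against 4.89% of all genes): Scd1, Srebf1 and the elongase Elovl5 (-0.16 ± 0.07). Lpin1, a phosphatidate phosphatase of triglyceride synthesis that also acts as a transcriptional coactivator, went the other way. Its difference was 0.35 ± 0.10 on 6 slides, and its other 3 probes gave 0.27 to 0.29. Without slide 3 the list's median was 0.0072.

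Several known targets of PPARs in fatty acid uptake and lipid droplets were lower in cHF+F. Of 20 PPAR targets tested, 12 were lower, and the median was -0.062. At an unadjusted p under 0.05, 4 were lower (20%, against 4.89% of all genes) and 0 higher. The mean of the members was lower on 5 of 8 slides. Perilipin 5 (Plin5), a coat protein that ties droplets to mitochondria, was -1.16 to 0.043 in cHF+F (median -0.55) and -0.84 to 0.15 in cHF+ROSI (median -0.11), a difference of -0.31 ± 0.085 on 7 slides. Perilipin 2 (Plin2), the general droplet coat of muscle, was lower by 0.32 ± 0.12, the fatty acid transporter Cd36 by 0.26 ± 0.084 and the acyl-CoA thioesterase Acot1 by 0.29 ± 0.13, each on 7 slides.

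For Cd36 the lowest array weighed on the range. It read -1.23 on the cHF+F array of slide 8, where the next lowest was -0.47. Leaving out slide 7 moved the median of the PPAR target list to -0.022. By the Cy5 signal alone Plin5 and Plin2 were both lower by 0.17, and Acot1 by 0.083.

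Of the 16 genes of fatty acid uptake tested, 9 were lower and 7 higher in cHF+F. At an unadjusted p under 0.05, 3 were lower (18.8%, against 4.89% of all genes). The median was -0.021, and 0.011 without slide 1. Gpihbp1, the endothelial anchor of lipoprotein lipase, was also lower in cHF+F, by 0.26 ± 0.056 on 7 slides. Pparg, the receptor that rosiglitazone activates, was lower by 0.20 ± 0.073 on 6 slides, and its partner Rxrg was higher by 0.27 ± 0.10 on 7. Among the 22 receptors and coactivators tested these were the only members with an unadjusted p under 0.05 (4.55% in each direction), and the list's median was 0.028.

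Oxidation of fatty acids differed little. Of 22 genes of mitochondrial beta-oxidation, 18 were higher in cHF+F, with a median of 0.052, and 13 with a median of 0.014 without slide 3. Carnitine acetyltransferase (Crat, 0.14 ± 0.053) and Hadhb of the trifunctional protein (0.18 ± 0.076) were higher at an unadjusted p under 0.05 (9.09%, against 5.17% of all genes). The PPAR-driven carriers and switches gave no clear difference. The interval (95%) was -0.19 to 0.20 for Cpt1a, -0.057 to 0.25 for Cpt1b, -0.26 to 0.56 for Ucp3 and -1.07 to 0.64 for Pdk4, the kinase that shuts pyruvate dehydrogenase, whose values in cHF+F alone spanned -2.21 to 0.097.

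Immediate early genes, which cells switch on within minutes of a stimulus without making new protein first, were largely lower in cHF+F. Of 25 tested, 22 were lower, 9 of them at an unadjusted p under 0.05 (36%, against 4.89% of all genes), and none was higher at that level. The median was -0.20, and -0.23 without slide 3. The mean of the members was lower in cHF+F on 7 of 8 slides, most on slides 1 (-0.80) and 2 (-0.65). Slide 3, counted among the 7, hardly differed (-0.0021), slides 5 and 8 differed by -0.085 and -0.079, and slide 7 was higher by 0.12. Without slide 1 the median was -0.11. By Cy5 alone it was -0.22.

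Atf3, a stress-induced repressor of the ATF/CREB family, led the list. Its log2 ratio was -1.02 to 0.26 in cHF+F (median -0.47) and -0.14 to 1.23 in cHF+ROSI (median 0.30). The difference was -0.90 ± 0.17, or 1.86-fold, on 7 slides, with slide 3 opposite at 0.31. Without slide 3 it was -1.07 with an adjusted p from limma of 0.0439, the only probe that passed there. Atf3 had an adjusted p from limma of 0.242 with all 8 slides. Since slide 3 was the slide against the difference, the p without it is not a test.

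Ier5 (-0.77 ± 0.22), the antiproliferative Btg2 (-0.54 ± 0.16), the MAP kinase phosphatase Dusp1 (-0.46 ± 0.14) and the AP-1 subunit Jund (-0.37 ± 0.11) were lower on 7 slides each, and Ier2 (-0.38 ± 0.13) on 6. Both other Btg2 probes were lower too, by 0.33 and 0.44. For Dusp1 the lowest cHF+ROSI value was 0.0012, while the cHF+F values ran from -0.57 to 0.30. Below the rule's limit of 6 members, Junb (-0.45), Socs3 (-0.24) and Egr1 (-0.52) also had an unadjusted p under 0.05, and Fos was lower by 0.53 without reaching that level.

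Several of these genes are known to respond to cyclic AMP through the sequence TGACG, the core of the CREB and ATF binding site. The promoters of Atf3, Btg2 and Dusp1 are shown because these 3 of the 6 members named by the rule held it, from RefSeq (GRCm38.p6, minus strand for each, 250 bases before to 50 after the start). Capitals mark TGACG on either strand and, in Atf3, also the sequence TGATGNAA described below.
Atf3, chr1:191183284-191183583: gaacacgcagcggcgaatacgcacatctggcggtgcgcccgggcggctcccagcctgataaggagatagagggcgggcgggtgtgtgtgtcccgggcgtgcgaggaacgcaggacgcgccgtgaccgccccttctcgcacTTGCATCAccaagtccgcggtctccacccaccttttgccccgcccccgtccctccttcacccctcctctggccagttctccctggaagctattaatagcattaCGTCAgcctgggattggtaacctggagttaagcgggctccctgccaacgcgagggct
Btg2, chr1:134079106-134079405: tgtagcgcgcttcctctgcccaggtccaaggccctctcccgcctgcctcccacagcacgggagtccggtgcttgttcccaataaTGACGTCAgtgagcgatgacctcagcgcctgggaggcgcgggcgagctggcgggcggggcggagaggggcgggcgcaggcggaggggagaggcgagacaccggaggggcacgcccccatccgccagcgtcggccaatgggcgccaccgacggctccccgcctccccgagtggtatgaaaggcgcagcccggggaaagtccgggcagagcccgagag
Dusp1, chr17:26508423-26508722: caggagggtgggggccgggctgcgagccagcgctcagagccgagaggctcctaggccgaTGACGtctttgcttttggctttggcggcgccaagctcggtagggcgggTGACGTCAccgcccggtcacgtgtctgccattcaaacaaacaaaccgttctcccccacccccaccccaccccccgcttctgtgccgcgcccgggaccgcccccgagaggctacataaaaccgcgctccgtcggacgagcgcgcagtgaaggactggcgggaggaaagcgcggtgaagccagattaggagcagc
In Btg2 and Dusp1 a forward and a reverse match overlap in the full palindrome TGACGTCA. Of the 25 members tested, 21 had a promoter in the table and 12 of these (57.1%) held TGACG in at least one listed promoter, against 23% of all 27025 genes of the table counted the same way and 20.8% of its 32851 promoters. The palindrome was held by 2 (9.52%), against 2.03% of genes and 1.79% of promoters. A match is a description of the letters in the window and not of binding or of a difference between the diets.

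**Figure D3:**
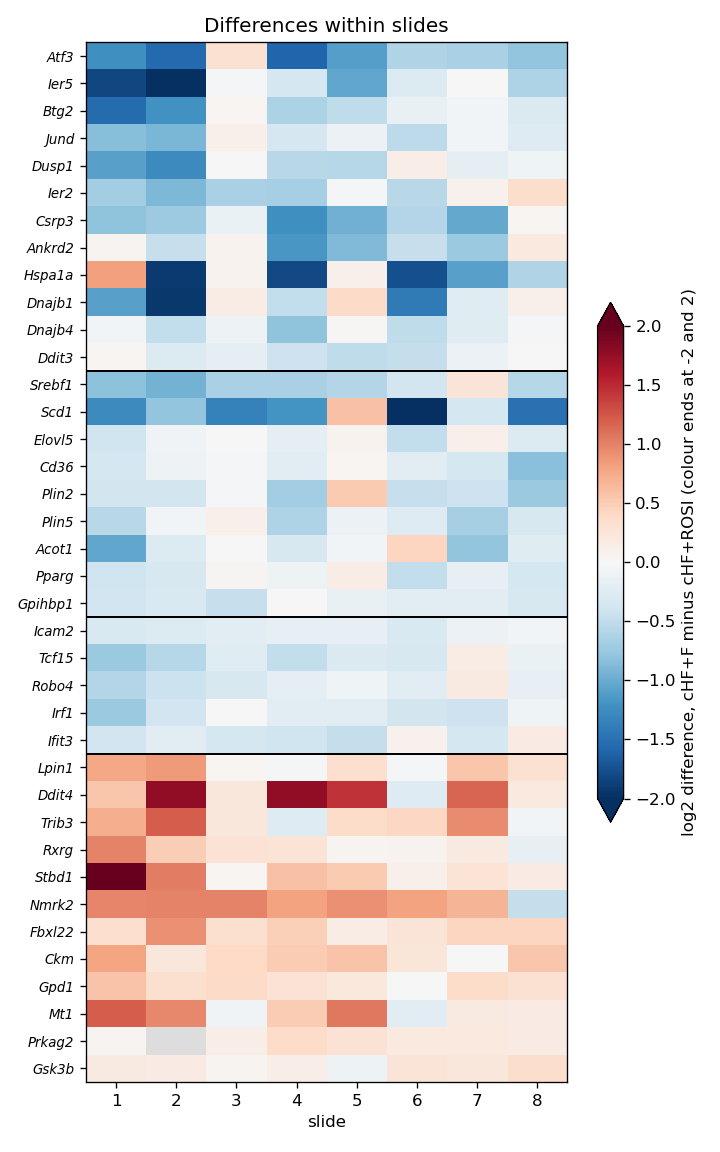
Within-slide differences in log2 ratio (colour, cHF+F minus cHF+ROSI, from blue for lower to red for higher) for named genes in rows and the 8 slides in columns. From the top the blocks hold immediate early and stress genes, lipid genes, vessel and interferon genes, and genes higher in cHF+F; the grey cell is Prkag2 on slide 2, where a spot was set aside. Slides 1 and 2 carry the darkest cells of Ier5 and Btg2, and Nmrk2 is red on every slide but 8.

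Targets of the amino acid and endoplasmic reticulum stress factor ATF4 moved in both directions. Of 21 tested, 14 were higher and 7 lower in cHF+F, with 3 at an unadjusted p under 0.05 each way (14.3%) and a median of 0.034. Ddit4, an inhibitor of mTORC1 induced by fasting, glucocorticoids and stress, was the largest difference in its direction. Its values were -1.13 to 0.84 in cHF+F (median 0.24) and -1.50 to -0.006 in cHF+ROSI (median -0.90), a difference of 0.86 ± 0.22 on 7 slides.

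Trib3, a pseudokinase that binds AKT, was higher by 0.45 ± 0.14 on 6 slides, and the alanyl-tRNA synthetase Aars by 0.18 ± 0.069 on 7. On the other side stood Atf3, the stress factor Ddit3 (-0.24 ± 0.071, 6 slides) and Nupr1 (-0.22 ± 0.092, 7 slides). Trib3 and Atf3 thus parted, although both promoters hold TGATGNAA, the composite site that ATF4 shares with its partners. It was found in 6 of 18 members with a promoter (33.3%), against 4.51% of all genes and 3.97% of all promoters. The members were listed as ATF4 targets, so a high share follows from that choice and is no result about the diets. The Trib3 promoter (RefSeq, GRCm38.p6, minus strand), with TGACG and TGATGNAA in capitals on either strand, is shown for comparison with that of Atf3.
Trib3, chr2:152344011-152344310: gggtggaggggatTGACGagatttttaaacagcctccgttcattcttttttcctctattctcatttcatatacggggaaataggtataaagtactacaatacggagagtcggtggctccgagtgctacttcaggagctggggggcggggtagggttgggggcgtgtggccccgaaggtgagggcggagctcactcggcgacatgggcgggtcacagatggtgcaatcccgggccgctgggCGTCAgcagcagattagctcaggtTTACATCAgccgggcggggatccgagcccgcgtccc

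Heat shock genes were found on both sides. The cytosolic chaperone Hspa1a was lower in cHF+F by 0.77 ± 0.28, its partner Dnajb1 by 0.57 ± 0.23 and Dnajb4 by 0.28 ± 0.089, whereas the mitochondrial chaperones Hspa9 (0.20 ± 0.057) and Hspd1 (0.19 ± 0.072) and the myosin chaperone Unc45b (0.21 ± 0.086) were higher. The values of Hspa1a spread from -1.43 to 1.65 in cHF+F and from -0.83 to 1.48 in cHF+ROSI, and it was lower on 5 of 8 slides, as was Dnajb1. Both other Hspa1a probes were lower, by 0.75 and 0.54, while second probes gave -0.00044 for Hspa9 and 0.098 for Hspd1. The 25 genes had a median of 0.011, with 3 at an unadjusted p under 0.05 in each direction (12%).

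Metallothioneins, which bind zinc and copper and respond to glucocorticoids, were higher in cHF+F. Mt1 read -0.75 to 0.97 in cHF+F (median -0.028) and -0.91 to -0.19 in cHF+ROSI (median -0.32), a difference of 0.47 ± 0.15 on 6 slides, and 0.50 by its other probe. Mt2 was higher by 0.45 ± 0.20 on 5 slides. Catalase (Cat, -0.20 ± 0.087) and Gstm1 (-0.18 ± 0.084) were lower and Gclc, of glutathione synthesis, was higher by 0.13 ± 0.057 on all 8 slides. The 30 genes of antioxidant defence had a median of -0.0025.

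Of the clock genes, the repressor Per2 was lower in cHF+F by 0.26 ± 0.11, and Clock was higher by 0.16 ± 0.054 but lower by 0.020 by Cy5 alone. The other 17 of 19 tested had an unadjusted p above 0.05.

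Genes of glycogen metabolism were mostly higher in cHF+F, the largest being Stbd1. This glycogen-binding protein anchors glycogen to membranes. Its log2 ratio was -0.017 to 1.26 in cHF+F (median 0.29) and -0.96 to 0.23 in cHF+ROSI (median -0.098). The difference of 0.59 ± 0.18 was positive on all 8 slides, most on slides 1 (1.99) and 2 (1.03), and its other probes gave 0.18 and 0.12. The lowest cHF+ROSI value stood alone, with the next at -0.18.

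Of 17 glycogen genes tested, 14 were higher, 4 at an unadjusted p under 0.05 (23.5%, against 5.17% of all genes) and 1 was lower, with a median of 0.067 that was 0.050 without slide 3 and 0.11 without slide 4. Phosphoglucomutase Pgm1 was higher by 0.23 ± 0.088 and the phosphorylase kinase subunit Phka1 by 0.17 ± 0.071. Pgm1 was 0.15 without slide 3. Cy5 alone turned Pgm1 to -0.042 and Phka1 to -0.053. The phosphatase subunit Ppp1r3d was lower by 0.22 ± 0.10. By Cy5 alone the list's median was -0.042.

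In the insulin and AMPK pathways 36 genes were tested. At an unadjusted p under 0.05, 7 were higher (19.4%, against 5.17% of all genes) and 1 lower (2.78%, against 4.89%). Prkag2, the gamma subunit of AMPK, was 0.007 to 0.49 in cHF+F (median 0.18) and -0.16 to 0.14 in cHF+ROSI (median -0.0053), and was higher by 0.20 ± 0.05 on each of the 7 slides that measured it. The glycogen synthase kinase Gsk3b (0.16 ± 0.054), Tsc1 of the complex that restrains mTOR (0.14 ± 0.05) and the ribosomal S6 kinase Rps6kb1 (0.16 ± 0.062) were higher on 7 slides. Other probes gave 0.086 for Gsk3b, 0.14 and 0.096 for Tsc1, and only 0.069 and 0.057 for Rps6kb1. None of these other probes had an unadjusted p under 0.05. Mtor itself was higher by 0.17 ± 0.053 on 8, but by Cy5 alone it was -0.0064 and its Cy3 signal was lower by 0.18. The insulin-regulated glucose transporter Slc2a4 differed by 0.18 ± 0.086, higher on 5 slides. The list's median was 0.021.

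Glycolysis had the highest median of the metabolic lists described here, 0.15. Of 25 genes tested, 20 were higher in cHF+F and 6 at an unadjusted p under 0.05 (24%, against 5.17% of all genes). However, the median was 0.083 without slide 3 and 0.0046 by Cy5 alone. Fbp2, the muscle fructose bisphosphatase, was higher by 0.31 ± 0.098 on 7 slides and by 0.19 in Cy5 alone. Phosphoglycerate kinase Pgk1 (0.29 ± 0.086), pyruvate kinase Pkm (0.17 ± 0.064) and phosphofructokinase Pfkm (0.23 ± 0.095) gave -0.013, 0.082 and 0.0027 by Cy5 alone. Other probes gave 0.25 for Pgk1, and 0.19 and 0.021 for Pkm. Hexokinase Hk1 was lower by 0.15 ± 0.063 on 5 slides.

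**Figure D4:**
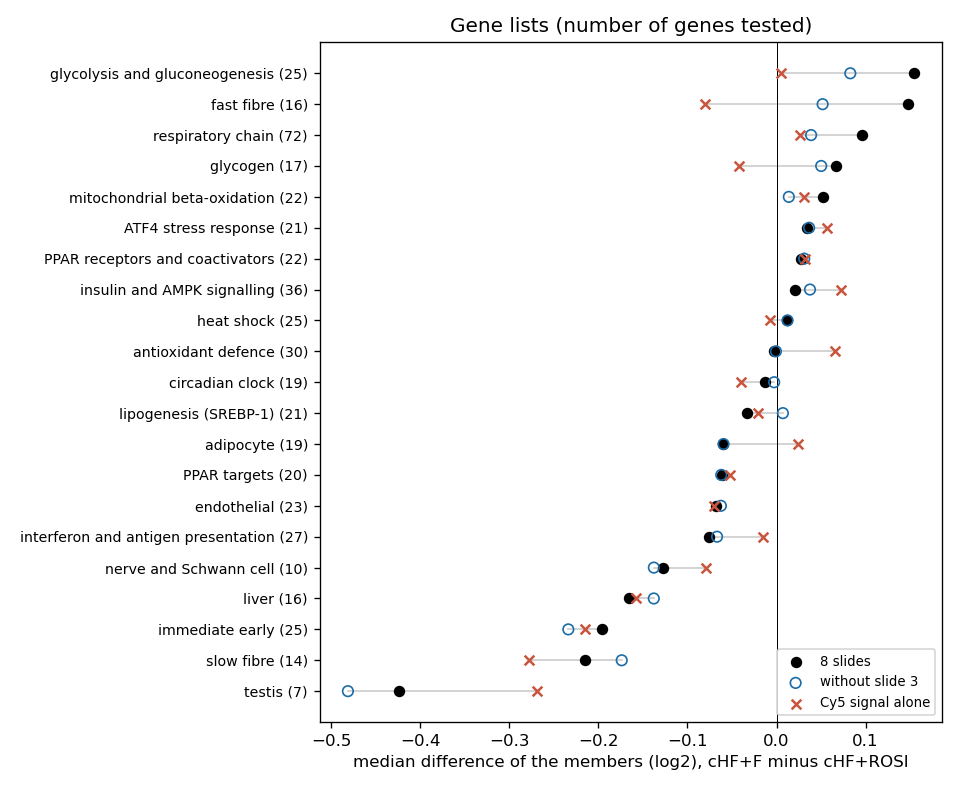
Median difference in log2 ratio (cHF+F minus cHF+ROSI) of the members of each gene list, with the number of genes tested in brackets: all 8 slides (black), without slide 3 (blue rings) and from Cy5 signals alone (red crosses). The immediate early and slow fibre lists lay at or below -0.17 in each, whereas glycolysis, fast fibre and respiratory chain moved towards or past 0 without slide 3 or by Cy5 alone.

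The fast contractile genes and the respiratory chain rested largely on slide 3. Of 16 fast fibre genes 15 were higher in cHF+F and 7 at an unadjusted p under 0.05 (43.8%), with a median of 0.15. On slide 3 the mean of the members differed by 0.76, without it the median was 0.052, and by Cy5 alone it turned to -0.081. Tropomyosin Tpm1 (0.41 ± 0.10), the essential light chain Myl1 (0.25 ± 0.072), the regulatory light chain Mylpf (0.28 ± 0.092), calsequestrin Casq1 (0.23 ± 0.071), Actn3 (0.24 ± 0.093) and the IIb myosin Myh4 (0.20 ± 0.085) had the smallest p. Other probes gave 0.35 and 0.014 for Tpm1, 0.26 for Myl1 and 0.21 for Myh4. Without slide 3 the differences of Actn3 and Myh4 were 0.16 and 0.13. By Cy5 alone Myl1, Mylpf, Actn3 and Myh4 were lower in cHF+F, by 0.19, 0.086, 0.0044 and 0.0067, and the pool's Cy3 signal was lower on the cHF+F arrays by 0.30 for Myl1 and 0.17 for Mylpf.

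Of 72 respiratory chain genes 68 were higher in cHF+F and 13 at an unadjusted p under 0.05 (18.1%), with none lower. The median of 0.096 was 0.039 without slide 3, where 56 were higher, and the mean of the members differed by 0.52 on slide 3. By Cy5 alone the list's median was 0.027. Cox8b (0.28 ± 0.082) and Ndufs1 (0.16 ± 0.061) were higher on all 8 slides, and Atp5j2, Cox4i1, Atp5pb and Ndufa5 by 0.19 to 0.23 on 6 or 7. Some of these slides hardly differed: Ndufs1 by 1.8e-05 on slide 4 and 0.0028 on slide 6, and Cox8b by 0.012 on slide 5. Without slide 3 Cox4i1 was higher by 0.15 and Ndufa5 by 0.12. Both further probes of Atp5pb gave 0.018 and 0.038, and by Cy5 alone the gene was lower by 0.029.

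Slow fibre genes lay on the other side. Of 14 tested, 12 were lower in cHF+F and 4 at an unadjusted p under 0.05 (28.6%, against 4.89% of all genes). The median was -0.21, -0.17 without slide 3 and -0.34 without slide 8. The mean of the members was lower on 6 slides, and higher on slides 5 (0.23) and 8 (0.41). Of the 4 members, Csrp3 and Ankrd2 are the stretch-induced genes named above. The others were Fhl1 (-0.38 ± 0.16, 7 slides) and the slow troponin Tnni1 (-0.56 ± 0.25, 6 slides). The defining slow genes spread widely within each group. The slow myosin Myh7 was -2.11 to 0.53 in cHF+F and -2.24 to 0.69 in cHF+ROSI, and its difference of -0.20 ± 0.27 was higher on as many slides as lower. Tnnc1 (-0.48 ± 0.24), Myh6 (-0.32 ± 0.26) and Myl2 (-0.077 ± 0.13) did not differ beyond their spread; Myl2 was higher, by 0.064, without slide 4. In whole muscle, fewer cells of a type and less RNA per cell cannot be told apart.

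**Figure D5:**
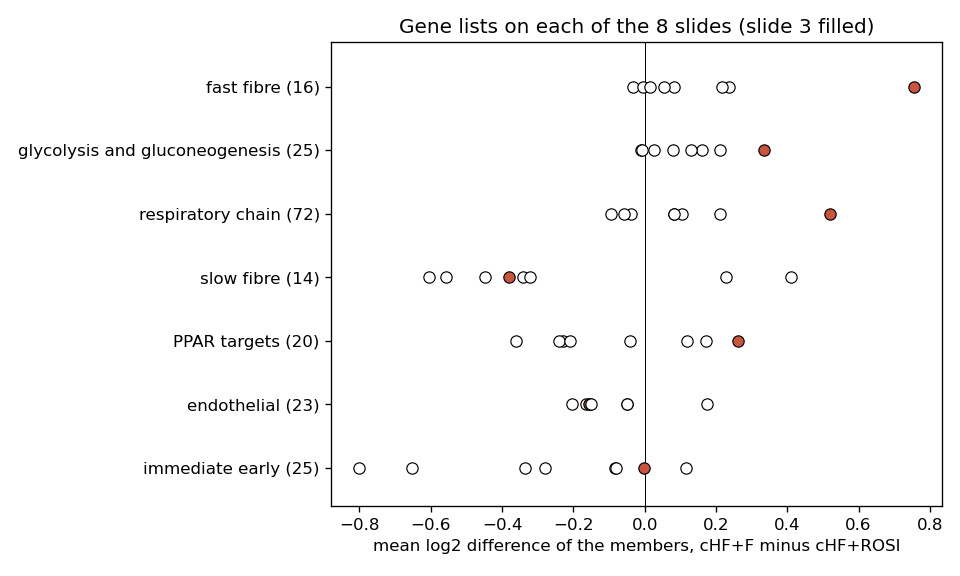
Mean difference in log2 ratio (x axis, cHF+F minus cHF+ROSI) of the members of 7 gene lists on each slide; each circle is 1 slide and slide 3 is filled. Fast fibre, respiratory chain and glycolysis genes have their highest value on slide 3 (0.76, 0.52 and 0.33). The immediate early list lies below 0 on 7 slides, though on slide 3 by 0.0021 only, and the endothelial list on 7.

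Endothelial genes were lower in cHF+F by a small margin. Of 23 tested, 19 were lower, 8 of them at an unadjusted p under 0.05 (34.8%, against 4.89% of all genes). The median was -0.068. Without slide 7, where the mean of the members was higher by 0.18, the median was -0.12. Icam2, an adhesion molecule of vessel walls, did not overlap between the groups: -0.28 to -0.095 in cHF+F and -0.058 to 0.16 in cHF+ROSI. Its difference was -0.20 ± 0.047. The capillary fatty acid regulator Tcf15 (-0.33 ± 0.083), the phosphatase Ptprb (-0.20 ± 0.066), Robo4 (-0.22 ± 0.074) and Egfl7 (-0.23 ± 0.078) were lower on 7 slides each. The VEGF receptor Kdr was higher by 0.18 ± 0.063, and a second Ptprb probe was higher by 0.20. By Cy5 alone Robo4, Ptprb and Egfl7 were lower by 0.074, 0.07 and 0.033.

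Interferon-stimulated genes were lower in 22 of 27 cases, 4 at an unadjusted p under 0.05 (14.8%), with a median of -0.075 that came to -0.026 without slide 7. The factor Irf1 was -0.39 to 0.074 in cHF+F (median -0.27) and -0.046 to 0.35 in cHF+ROSI (median 0.096), a difference of -0.31 ± 0.073 on 7 slides. Ifit3 (-0.24 ± 0.076), Rtp4 (-0.24 ± 0.088) and the tether Bst2 (-0.18 ± 0.073) followed, and by Cy5 alone Rtp4 differed by -0.0043 and Bst2 by -0.06. The promoter of Ifit3 holds the interferon response sequence GAAANNGAA at 3 places, in capitals here on either strand (RefSeq, GRCm38.p6, plus strand). Of the members with a listed promoter, 10 of 21 (47.6%) held it, against 9.76% of all genes and 8.56% of all promoters. The members were listed as interferon-stimulated genes, so a high share follows from that choice and not from the diets.
Ifit3, chr19:34583279-34583578: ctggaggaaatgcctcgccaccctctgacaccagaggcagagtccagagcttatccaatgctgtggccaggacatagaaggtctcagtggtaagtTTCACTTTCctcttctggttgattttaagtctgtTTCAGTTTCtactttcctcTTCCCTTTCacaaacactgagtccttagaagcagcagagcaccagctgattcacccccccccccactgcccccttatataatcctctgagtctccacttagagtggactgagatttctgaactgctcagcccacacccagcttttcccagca

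Markers of other tissues were read for what the muscle samples held. All 10 nerve and Schwann cell genes tested were lower in cHF+F, with a median of -0.13; S100b (-0.49 ± 0.18) and the myelin protein Pmp22 (-0.46 ± 0.18) had an unadjusted p under 0.05 (20%). Without slide 6 the median was -0.053, and on slide 5 the mean of the members was higher in cHF+F by 0.56. The list's mean ranged from -0.30 to 0.26 on the cHF+F arrays and from -0.31 to 0.73 on the cHF+ROSI arrays. Of 19 adipocyte genes 12 were lower, with Pparg and the glycerol channel Aqp7 (-0.16 ± 0.056, and 0.00096 by Cy5 alone) at an unadjusted p under 0.05. The list's mean ran from -0.60 to 0.49 in cHF+F and from -0.43 to 0.19 in cHF+ROSI, and the part of fat cells in the values of Plin2, Cd36 and Pparg was not tested.

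Genes of liver and testis varied between single arrays more than between diets. Of 16 liver genes 13 were lower in cHF+F, with a list mean of -1.18 to 0.64 in cHF+F and -1.78 to 1.15 in cHF+ROSI. Haptoglobin (Hp), an acute-phase protein, was the only one with an unadjusted p under 0.05 and was higher by 0.71 ± 0.31 on 5 slides. Without slide 5, where it differed by 2.77, the difference was 0.42, less than 1.5-fold. The sperm protamines Prm1 and Prm2 were lower by 1.48 ± 0.60 and 1.13 ± 0.49 in cHF+F. Prm1 ran from -2.42 to 1.11 in cHF+F and from -2.11 to 3.53 in cHF+ROSI, its difference was -5.67 on slide 8 and 1.28 on slide 2, and without slide 8 the median of the 7 testis genes moved from -0.42 to -0.21. Hspa1l was lower by 0.18 ± 0.077.

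Among the genes that the study followed by quantitative PCR, 17 were measured here. An unadjusted p under 0.05 was reached by 7. Gpd1, Fbp2 and Trib3 were higher in cHF+F (17.6%, against 5.17% of all genes). Srebf1, Scd1, Cd36 and Acot1 were lower (23.5%, against 4.89% of all genes). Ppargc1a, the coactivator of mitochondrial genes, differed by 0.18 ± 0.11 and was higher on 6 slides.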

How the data were processed

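RNA of single gastrocnemius muscles (Cy5) was hybridised by the authors against a common reference pool (Cy3), which also held RNA of mice on another rosiglitazone dose, on 2-colour Agilent mouse arrays without dye swaps. The deposited scanner files hold spot and background intensity from Feature Extraction (10.5.1.1 per the file headers, 10.5.5.1 per the submitters' processing notes), with probe positions on mouse build mm8. The authors' table of log2 values was not used: 8 of its columns name a combined diet and none cHF+ROSI.

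Here, median spot signals were background-corrected (normexp, offset 50) and loess-normalized within arrays (span 0.3) with limma 3.58.1 in R 4.3.3; flagged spots were set aside and replicate spots averaged. Probes were kept at a mean signal of at least 2 times background in both channels over all 24 arrays and with at least 5 complete slides. Differences are cHF+F minus cHF+ROSI, tested with the slide as a fixed block, 2-sided, with Benjamini-Hochberg adjustment over all 15934 probes. Of these, 12608 were named by accession and 2226 by name in the RefSeq table (GRCm38.p6), 101 kept the file's name and 999 had none. The mice are separate animals that were caged in pairs within a diet. The fit holds no term for the cage, so its SE and p count mice that shared a cage as independent. Slide numbers pair arrays by the shared slide; same-slide correlations of log2 ratio deviations ran from -0.0035 to 0.46, and of Cy5 signals from -0.19 to 0.79. Array number limits the precision.

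The fit was tested on simulated data of this comparison, 15934 probes with 200 changed. Of 50 changed by 0.3 on the log2 scale 29 were called, and of 50 changed by 0.6 there were 46. All 100 of larger changes were called, with 7 calls among the 15734 unchanged probes. Those rates hold for the simulated noise and do not exclude real changes of these sizes. On the arrays themselves, measured differences as large as those of Scd1 (-0.98), Atf3 (-0.90) and Ddit4 (0.86) were not called.

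Named genes were, since none was called, the 12 with the smallest p in each direction (measured on all 16 arrays and well above background in Cy5 on at least 12), list members with an unadjusted p under 0.05 (at most 6, otherwise the 2 smallest) and the genes the study followed by PCR. A gene has the values of its brightest probe. Members, the 40 gene lists and the rule were chosen with earlier results of these data known. List values are counts and medians, with no test. The values of 1 gene that the rule names are not reported here.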

Additional observations from a re-analysis of the deposited data

Results flagged for a closer look

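In 272 groups of 8 arrays (each named gene and described gene list in each diet), 22 had 1 array apart from the others, by a gap to its nearest neighbour of more than 0.526 of the range. Chance flags about 1 in 20 such groups. Of the arrays set apart, 6 were the cHF+ROSI array of slide 3 and 5 that of slide 1.

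On the cHF+ROSI array of slide 3, genes abundant in muscle were the lowest of their group: Pgm1 read -0.93 (next -0.10), Cox4i1 -0.98 (next -0.38), Actn3 -1.11 (next -0.25) and Unc45b -0.65 (next -0.24). The list means on that array were -0.37 for glycolysis (next -0.09) and -0.86 for fast fibre genes (next -0.08).

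On the cHF+ROSI array of slide 1 Stbd1 was lowest at -0.96 (next -0.18) and Ptprb at -0.58 (next -0.05), while Nupr1 was highest at 0.80, Pparg at 0.39 and Gstm1 at 0.79. The cHF+F array of the same slide was highest for Slc2a4 (0.38), Elovl5 (0.42), Ndufa5 (0.38) and Clock (0.39).

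The remaining arrays apart were the highest cHF+F values of Ppnr on slide 3 (0.65) and Ppargc1a on slide 2 (0.56), the lowest cHF+F value of Cd36 on slide 8 (-1.23), and the lowest cHF+ROSI values of Gamt on slide 6 (-0.42) and Clock on slide 7 (-0.22). Of list means, the lipogenic genes were lowest on the cHF+ROSI array of slide 7 (-0.27) and the interferon genes highest on the cHF+F array of slide 8 (0.15).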

How the results depend on the processing

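The 23 alternatives were run on the counts and the named genes; 107 genes had a value in each, and 8 dim ones in 22, since the filter at 3 times background left them out. Without the replicate block for the slide, 951 probes had an unadjusted p under 0.05 (1572 with it) and 0 an adjusted one; the Cy3 channel then gave 37 in place of 930, and leaving it out reversed no named gene. In the other fits the count at an unadjusted p was 107 with median centring without loess, 3232 with no filter on dim probes and 939 with the methods' t-test. With at least 1.2-fold (206 probes) it was 132 without background correction, 107 with median centring, 547 with the processed signals, 526 from Cy5 alone and 131 with the methods' t-test, and with at least 1.5-fold (23) it was 42 with the processed signals and 14 with the methods' t-test. Leaving out 1 slide gave 0 to 1 probes at the adjusted threshold (1 each without slides 3, 7 and 8), 1167 to 1747 at an unadjusted p, 191 to 287 with 1.2-fold and 11 to 64 with 1.5-fold. Of 115 named genes, 100 kept their direction in every alternative that gave a value. Alternatives that changed only the handling of the slide or the filter on dim probes could not turn a gene measured on every array. From Cy5 alone 10 turned: Pgk1 (-0.013), Pgm1 (-0.042), Phka1 (-0.053), Atp5pb (-0.029), Mtor (-0.0064), Myl1 (-0.19), Mylpf (-0.086), Actn3 (-0.0044), Myh4 (-0.0067) and Clock (-0.020), as did Aqp7 (0.00096). Myh4 also turned without background correction (-0.0045) and with median centring (-0.027), and Cpt1b with median centring (-0.027). Cpt1a, near 0, turned with mean signals (-0.00013), loess span 0.1 (-0.0027), array weights (-0.022) and without slides 3 and 4 (-0.087), and Myl2 without those slides (0.079). With 1 slide left out Cpt1a ran from -0.047 to 0.071, Myl2 from -0.15 to 0.064 and Pdk4 from -0.55 to 0.076. The causes were not tested. Over all lists and alternatives, 12 medians moved by more than the spread between slides, among them glycolysis to 0.012 with median centring. Precision is limited by signal over background, which for the named genes was as low as 3.52 times in Cy5 (Prkag2).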

Other observations

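Other gene lists were measured and not described above. Extracellular matrix genes were higher in cHF+F in 24 of 31 cases, with a median of 0.095 (0.12 without slide 3, 0.039 without slide 5 and 0.14 by Cy5 alone), and 3 were higher and 2 lower at an unadjusted p under 0.05 (9.68% and 6.45%). Their mean was higher on 4 of 8 slides, most on slide 5 (0.41). Genes of excitation-contraction coupling were higher in 16 of 20 cases with a median of 0.065, which was 0.07 without slide 3 and 0.078 by Cy5 alone, and 2 had an unadjusted p under 0.05 (10%).

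Genes that turn PUFA into lipid mediators were lower in 9 of 11 tested cases, with a median of -0.032, and 0.026 by Cy5 alone; the other 17 of the 28 listed did not pass the filter on dim probes. Peroxisomal genes, among them those of very-long-chain fatty acid oxidation, had a median of -0.018, with 13 of 20 lower in cHF+F and 2 at an unadjusted p under 0.05 (10%).

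Cholesterol synthesis (20 tested, median 0.013), breakdown of branched-chain amino acids (24 tested, -0.0055), ubiquitin ligases and FOXO targets of muscle (22 tested, 0.002), the proteasome (31 tested, 0.027) and the cell cycle (14 tested, 0.00013) had medians within 0.03 of 0. Macrophage and MHC class II genes were lower in 13 of 21 cases with a median of -0.081, which was 0.010 without slide 4 and 0.046 by Cy5 alone. The 3 red blood cell genes that passed the filter were all higher in cHF+F, with a median of 0.30, or 0.13 without slide 4, and a mean that was higher on 5 of 8 slides.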
